A study of Mus musculus with 8 samples.

Results

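The genes described here encode ART2 ecto-enzymes, the ATP receptor P2X7 and the enzymes and receptor that handle NAD, ATP and adenosine outside T cells. They were chosen by symbol and are Art2a, Art2b, P2rx7, Cd38, Entpd1, Nt5e, Adora2a and Ada, 8 of the 18438 genes in the deposited table, and all 8 passed the filter on low values. The set was proposed with results of these data in view, and its rule names no contrast. The adjusted p-values below therefore place each gene within the fit of the whole table and are not independent evidence.

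Spleen T cells were taken from C57BL/6 mice on day 7 of experimental autoimmune encephalomyelitis (EAE), an autoimmune disease of the central nervous system that had been induced with the myelin protein MOG. Regulatory T cells (Treg) had been sorted as CD4+CD25hiYFP+ and effector T cells (Teff) as CD4+CD25-YFP-. Each came from mice labelled IRE1a-/- (KO), IRE1a being a sensor of endoplasmic reticulum stress, and from WT mice, so that all groups share the strain, the disease and its day. The 4 groups, KO Treg, WT Treg, KO Teff and WT Teff, held 2 libraries each. The labels used here do not say which cells carry the deletion, what drives YFP, the age of the mice, whether animals were pooled, or whether each library stands for its own mouse. P-values thus reflect differences among these 8 libraries alone, and that spread may be technical.

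The deposited values are normalized read numbers and summed to between 17504097 and 18751258 per library. Ern1, which encodes IRE1a, averaged 342 ± 23.3 in KO Treg and 388 ± 15.7 in WT Treg, and 455 ± 3.67 in KO Teff and 587 ± 40.0 in WT Teff (SD, n = 2 each). Neither difference passed limma's test (adjusted p = 0.489 and 0.0902), so these gene-level values do not check the genotype labels. Il2ra, which encodes CD25, followed the sort, with means of 8793 in KO Treg, 8978 in WT Treg, 486 in KO Teff and 639 in WT Teff. Foxp3, the lineage factor of Treg, lay between 89.1 and 117 in the 4 Treg libraries, at 8.29 or less in the KO Teff libraries and at 0 in both WT Teff libraries. All 5 T cell markers in the table were at 10 or more in every library. Macrophage and monocyte markers were present too: 9 of 10 listed markers were in the table, and 8 of these were at 10 or more in every library. Their summed level was 8992 to 9448 in KO Treg, 15694 to 16089 in WT Treg, 692 to 859 in KO Teff and 1178 to 2021 in WT Teff. Csf1r, the growth factor receptor that defines macrophages, had 2222 and 2033 in KO Treg, against 3472 and 3655 in WT Treg. In Teff it had 85.3 and 55.3 in KO libraries, against 300.3 and 114 in WT libraries.

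Cells release NAD and ATP when they are stressed or damaged. On mouse T cells ART2 enzymes use NAD to attach ADP-ribose to surface proteins, P2X7 among them, and this modification opens the P2X7 ion channel, which otherwise needs high ATP. CD38 competes for the same NAD. CD39 and CD73, for which Treg are known, degrade ATP stepwise to adenosine, which signals through the A2A receptor until adenosine deaminase removes it.

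Art2a and Art2b lie next to each other on the minus strand of chromosome 7, at 101552453 to 101560865 and 101576970 to 101585600 of GRCm38 (GENCODE M21). Their coding sequences are 92.2% identical over 822 aligned bases. In C57BL/6 mice Art2a carries a premature stop, and the ART2 enzyme of their T cells is known to come from Art2b; GENCODE lists the gene as Art2a-ps, a polymorphic pseudogene. In its transcript the first in-frame stop is codon 161 of 287, whereas the frame of Art2b runs over 286 codons with 0 stops inside it. The stretches around that stop are printed because they separate a gene that cannot give the full enzyme from one that can. They are coding sequence of the minus strand from GENCODE transcripts, chr7:101554836-101554909 for Art2a and chr7:101580197-101580270 for Art2b, with the codon at the place of the stop in capitals.
Art2a: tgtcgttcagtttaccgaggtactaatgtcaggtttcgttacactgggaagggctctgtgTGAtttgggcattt
Art2b: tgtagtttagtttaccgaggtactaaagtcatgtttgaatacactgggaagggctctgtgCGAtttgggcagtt

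Reads of 50 bases cannot always tell the pair apart. The longest run that both genes share without a difference has 125 bases, and it is printed with its flanks because reads inside it fit both. The sequences are again 5′ to 3′ on the minus strand, chr7:101555092-101555256 for Art2a and chr7:101580453-101580617 for Art2b, and capitals mark bases that differ.
Art2a: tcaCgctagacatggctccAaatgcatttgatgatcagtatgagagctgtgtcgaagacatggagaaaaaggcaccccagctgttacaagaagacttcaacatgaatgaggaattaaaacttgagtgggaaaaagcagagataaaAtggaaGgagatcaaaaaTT
Art2b: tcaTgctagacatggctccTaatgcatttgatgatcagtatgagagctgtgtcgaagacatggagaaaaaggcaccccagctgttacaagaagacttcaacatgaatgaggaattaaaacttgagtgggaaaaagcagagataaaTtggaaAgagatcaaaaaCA
Of the 1208 windows of 50 bases in the Art2a transcript, 142 (11.8%) also occur in Art2b. Of the 2770 windows of the longest coding Art2b transcript, 140 (5.05%) occur in Art2a. The sources used here name Salmon 0.14.1 among the authors' tools but do not say how it divided such reads. The values of both genes carry that uncertainty.

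Art2a was much lower in KO Teff. Its normalized read number was 87.7 and 94.7 in KO Teff, against 648 and 671 in WT Teff. In Treg it was 290.2 and 267 in KO libraries, against 386 and 400.2 in WT libraries. Both KO groups lay wholly below their WT groups, and the gap was wider in Teff. The means were 91.2 ± 5.01 in KO Teff and 659 ± 16.1 in WT Teff (SD, n = 2 each), a log2 fold change of -2.84 on the log2(value + 1) scale (SE 0.11, limma adjusted p = 7.40e-05), or 7.16-fold lower. This was the gene with rank 5 by p among 13358 tested. In Treg the means were 279 ± 16.2 in KO and 393 ± 9.81 in WT, a log2 fold change of -0.50 that did not pass (SE 0.11, adjusted p = 0.0991). The sorted cells are bulk samples, in which fewer cells of a type and less RNA per cell cannot be told apart.

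Art2b differed in the other cell type and in the other direction. It had 1876 and 1924 in KO Treg, against 896 and 888 in WT Treg. In Teff it had 1059 and 1260.3 in KO libraries, against 989.6 and 1048 in WT libraries. KO Treg stood far above the other 3 groups, while in Teff the KO libraries lay just above the WT libraries. The means in Treg were 1899.8 ± 33.6 in KO and 892 ± 5.29 in WT, a log2 fold change of 1.09 (SE 0.094, adjusted p = 0.00257), or 2.13-fold higher. In Teff the means were 1159.6 ± 142 in KO and 1019 ± 41.6 in WT, and the log2 fold change of 0.18 did not pass (SE 0.094, adjusted p = 0.321).

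**Figure D1:**
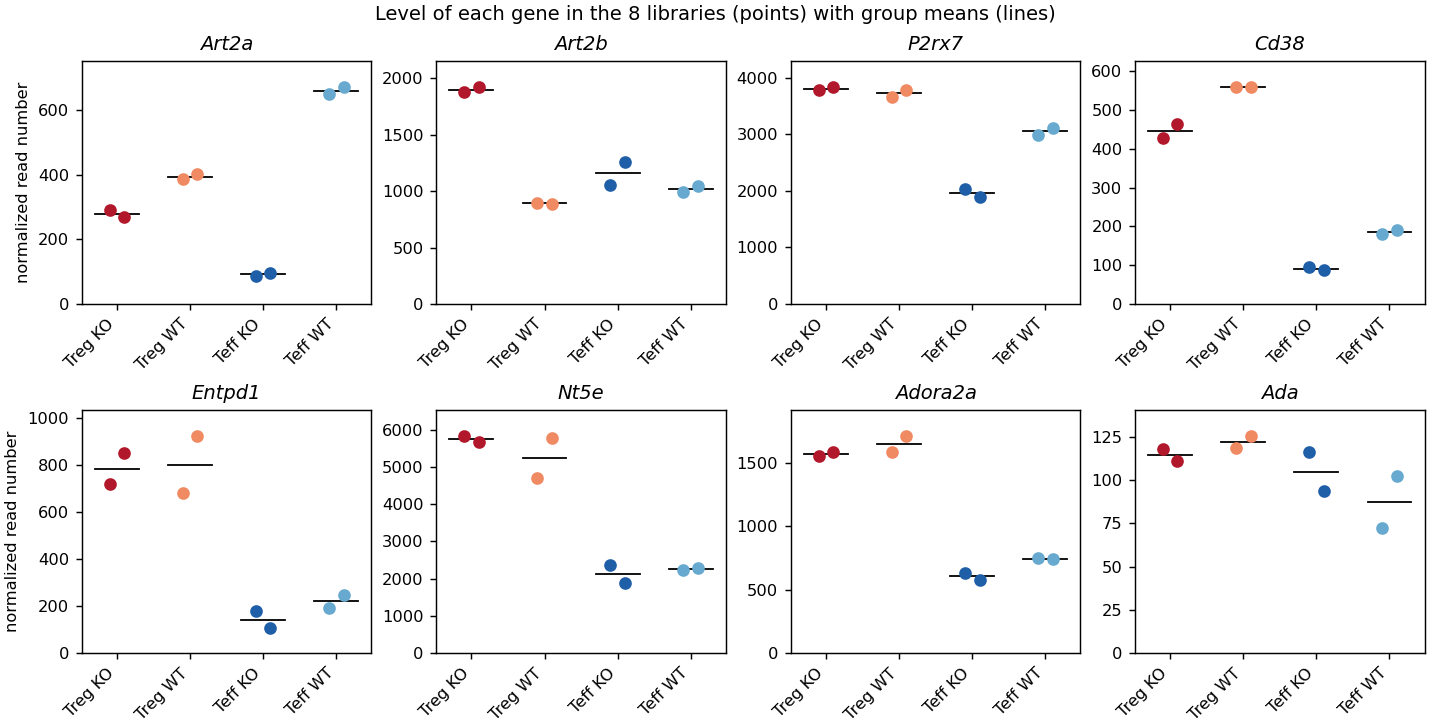
Normalized read number (linear axes from 0) of each of the 8 genes in every library, 2 points per group with a line at the group mean, ordered KO Treg, WT Treg, KO Teff and WT Teff. Art2a is low in KO Teff (87.7 and 94.7), Art2b is high in KO Treg (1876 and 1924), and Cd38, Entpd1, Nt5e and Adora2a stand higher in the 4 Treg libraries than in the 4 Teff libraries.

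Because reads can be shared, the pair was also summed. The sum was 2166 and 2191 in KO Treg, against 1282 and 1289 in WT Treg, a log2 fold change of 0.76 (SE 0.088, limma adjusted p = 0.00893). In Teff it was 1147 and 1355 in KO libraries, against 1637 and 1719 in WT libraries, a log2 fold change of -0.43 (SE 0.088, adjusted p = 0.0321). The summed pair was thus higher in KO Treg and lower in KO Teff. Art2a made up 13.4% and 12.2% of the sum in KO Treg, against 30.1% and 31.1% in WT Treg. In Teff it made up 7.65% and 6.99% in KO libraries, against 39.6% and 39.0% in WT libraries. In both cell types the KO libraries held a smaller share of Art2a than the WT libraries, with no overlap.

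**Figure D2:**
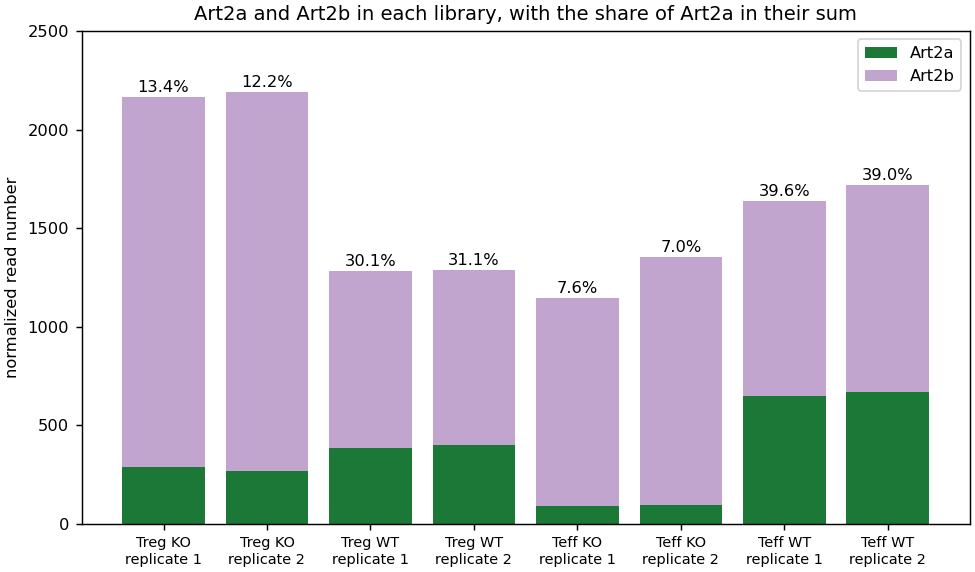
Stacked bars of the normalized read numbers of Art2a (bottom) and Art2b (top) in each of the 8 libraries, with the percentage of Art2a in the sum above each bar. The KO Treg bars reach 2166 and 2191 through Art2b, and the KO Teff bars hold the smallest shares of Art2a, 7.65% and 6.99%.

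The 8 nearest tested and named gene rows around the pair lay 39.6 to 268 kb away. They included 1 that was called lower in KO Teff, singled out after its values were seen, where 5.08% of all tested genes were called lower. This was Inppl1, which encodes the lipid phosphatase SHIP2 and lies 237 kb from the pair. It had 427 and 516 in KO Teff, against 1607 and 2193 in WT Teff (log2 fold change -2.00, SE 0.18, limma adjusted p = 0.00238). In Treg it had 980.4 and 1148 in KO libraries, against 1893 and 2353 in WT libraries (-0.99, SE 0.18, adjusted p = 0.0567). Pde2a held more than 1 of the 8 rows. Its nearest row, at 39.6 kb, had 700 and 462 in KO Treg, against 295 and 243 in WT Treg. That difference did not pass (1.08, SE 0.21, limma adjusted p = 0.0670), and another Pde2a row had 0.19 (adjusted p = 0.498).

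P2rx7 (chromosome 5, 122643911 to 122691432, plus strand), which encodes the ATP-gated channel that ART2 modifies, was lower in KO Teff. It had 2027 and 1895 in KO Teff, against 2991 and 3111 in WT Teff. In Treg it had 3779 and 3837 in KO libraries, against 3667 and 3789 in WT libraries. The groups overlapped in Treg and were apart in Teff. The means in Teff were 1961 ± 93.5 in KO and 3051 ± 85.0 in WT, a log2 fold change of -0.64 (SE 0.059, limma adjusted p = 0.00240), or 1.56-fold lower. In Treg the log2 fold change was 0.031 (SE 0.059, adjusted p = 0.872). An exon of P2rx7 overlaps the microRNA gene Mir8115 by 119 bases, and reads from there cannot be told apart.

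Cd38 (chromosome 5, 43868553 to 43912375, plus strand) encodes an enzyme that cleaves NAD at the cell surface. It had 94.5 and 86.1 in KO Teff, against 179.5 and 190.3 in WT Teff. In Treg it had 429 and 463 in KO libraries, against 558 and 559 in WT libraries. KO libraries were below WT libraries in both cell types, and the difference passed in Teff (log2 fold change -1.03, SE 0.12, limma adjusted p = 0.00521, 2.04-fold lower) but not in Treg (-0.33, SE 0.12, adjusted p = 0.277). The Teff call was lost when only the 4 Teff libraries were fitted (adjusted p = 0.0636, with 0.00463 to 0.0636 over 19 alternatives).

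Entpd1 (chromosome 19, 40612366 to 40741602, plus strand) encodes CD39, which takes ATP and ADP to AMP. It had 716 and 848 in KO Treg, against 679.8 and 922 in WT Treg. In Teff it had 178 and 104 in KO libraries, against 190.1 and 247 in WT libraries. The Treg groups overlapped, and the Teff groups did not, though the 2 KO Teff libraries lay far apart. Neither difference passed (log2 fold change -0.022, SE 0.28, limma adjusted p = 0.989 in Treg, and -0.66, SE 0.28, adjusted p = 0.223 in Teff). The Teff value was -1.05 without KO Teff replicate 1 and -0.28 without KO Teff replicate 2.

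Nt5e (chromosome 9, 88327197 to 88372092, plus strand) encodes CD73, which makes adenosine from AMP. It had 5834 and 5678 in KO Treg, against 4722 and 5799 in WT Treg. In Teff it had 2356 and 1895 in KO libraries, against 2229 and 2278 in WT libraries. KO and WT overlapped in both cell types, and the log2 fold changes of 0.14 in Treg and -0.093 in Teff did not pass (SE 0.12 each, limma adjusted p = 0.672 and 0.722).

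Adora2a (chromosome 10, 75316877 to 75334784, plus strand) encodes the adenosine A2A receptor, which raises cAMP. It had 1556 and 1585 in KO Treg, against 1584 and 1712 in WT Treg. In Teff it had 631 and 577 in KO libraries, against 746 and 739 in WT libraries. The groups overlapped slightly in Treg and were apart in Teff, where the log2 fold change of -0.30 did not pass (SE 0.080, limma adjusted p = 0.0731); in Treg it was -0.068 (SE 0.080, adjusted p = 0.761).

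Ada (chromosome 2, 163726584 to 163750239, minus strand) encodes adenosine deaminase, which converts adenosine to inosine. In Treg it had 118 and 111 in KO libraries, against 119 and 126 in WT libraries. In Teff it had 117 and 93.6 in KO libraries, against 72.6 and 102 in WT libraries. The Teff groups overlapped, the Treg groups were apart by less than 1 unit, and neither difference passed (log2 fold change -0.089 in Treg and 0.27 in Teff, SE 0.22 each, limma adjusted p = 0.903 and 0.535).

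Of the 8 genes, 1 was called higher in KO Treg (Art2b) and 0 lower, where 1.45% of all tested genes were called in that comparison, 0.674% higher and 0.779% lower. At an unadjusted p under 0.05 there were 1 higher and 2 lower, against 871 higher and 1093 lower of all 13358 tested genes. In KO Teff 3 were called lower (Art2a, P2rx7 and Cd38) and 0 higher, where 6.92% of tested genes were called, 5.08% lower and 1.84% higher. At an unadjusted p under 0.05 there were 5 lower and 0 higher, against 1832 lower and 1049 higher of all 13358 tested genes. The median log2 fold change of the set was -0.045 in Treg and -0.47 in Teff, against -0.0083 and -0.019 over all tested genes. In the authors' deposited table the log2 fold change of Art2b was 1.09 in Treg (adjusted p = 2.64e-16), and in Teff those of Art2a, P2rx7 and Cd38 were -2.85, -0.64 and -1.03 (adjusted p = 4.64e-43, 9.24e-14 and 7.43e-05).

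**Figure D3:**
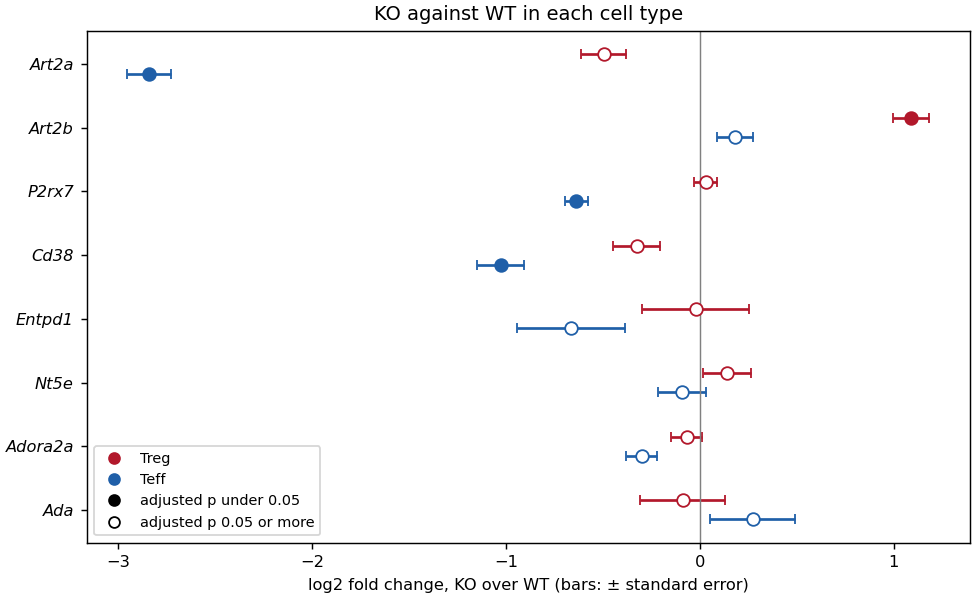
Log2 fold change of KO over WT (log2(value + 1) scale, bars are ± standard error from limma) for the 8 genes in Treg and in Teff, with filled points for an adjusted p under 0.05. The filled points are Art2b in Treg at 1.09 and Art2a, Cd38 and P2rx7 in Teff at -2.84, -1.03 and -0.64.

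Other measures moved with genotype in the same libraries. In Treg 2 of 6 activated T cell markers fell in KO (Mki67 and Irf4), with a summed level of 23797 to 23913 in KO and 27214 to 27980 in WT. Resting T cell markers summed to 49828 to 51427 in KO Treg and 40377 to 41905 in WT Treg, and 2 of 6 rose (S1pr1 and Il7r). In Teff the 6 activated T cell markers all fell in KO, with a summed level of 8461 to 9591 in KO and 13651 to 14936 in WT. Resting T cell markers summed to 92182 to 94354 in KO Teff and 72918 to 79029 in WT Teff, and 2 of 6 rose. Of 4 Treg markers 2 fell in KO Teff, Ctla4 (-0.39, limma adjusted p = 0.0136) and Ikzf2 (-0.99, adjusted p = 0.0406). Foxp3 was at 2.06 and 8.29 in KO Teff, against 0 and 0 in WT Teff, all below the filter limit of 10. It was tested through its Treg libraries alone. Its call as higher in KO Teff (limma adjusted p = 0.0419) thus rests on values near the bottom of the scale. In Treg 0 of the 4 Treg markers passed limma's test, and their sums were 41305 to 42503 in KO and 46856 to 47468 in WT. Of the 9 macrophage and monocyte markers none passed limma's test in Teff or in Treg. At an unadjusted p under 0.05, however, 6 were lower in KO Teff and 3 lower in KO Treg. Over all 13358 tested genes these counts were 1832 and 1093. The median log2 fold changes of the macrophage and monocyte markers were -1.13 in Teff and -0.76 in Treg. Dendritic cell markers summed to 389 to 729 in KO Teff and 948 to 1610 in WT Teff, with 1 of 5 lower. At an unadjusted p under 0.05 all 5 were lower in KO Teff, with a median log2 fold change of -1.17. In Treg they summed to 187 to 211 in KO and 349 to 371 in WT. There 0 were called, 1 was lower at an unadjusted p under 0.05, and the median was -0.82. NK and gamma delta T cell markers summed to 430 to 525 in KO Teff and 669 to 749 in WT Teff, with 0 of 2 tested called. B cell markers summed to 489 to 495 in KO Treg and 342 to 347 in WT Treg, with 0 of 6 called by limma. Pax5 alone had 178 and 162 in KO Treg, against 5.74 and 2.87 in WT Treg (adjusted p = 0.0899), and without it the sums were 317 and 327 in KO Treg and 337 and 344 in WT Treg. Defining markers at 0 in at least 1 library were Clec9a of dendritic cells, Ncr1 of natural killer cells, Fcgr1 of macrophages and Pf4 and Ppbp of platelets. The part of these cells and states in the differences of Cd38, P2rx7, Entpd1 and the ART2 genes was not tested.

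The next comparison asked whether the KO effect differed between the cell types, by the interaction term of the same fit. It was called for Art2a, where the effect in Treg minus that in Teff was 2.34 on the log2 scale (SE 0.16, limma adjusted p = 0.00889). Only 3 of 13358 tested genes were called (0.0225%), and the other two were Zswim9 and the T cell receptor segment Trav7d-6. The call of Art2a was lost without any single Treg library and without either WT Teff library, with adjusted p of 0.00807 to 0.0839 over 18 alternatives, while the difference itself stayed between 2.18 and 2.40. P2rx7 and Art2b had differences of 0.67 and 0.91 and did not pass (SE 0.083 and 0.13, adjusted p = 0.0719 and 0.100). Differences for the remaining 5 genes lay between -0.36 and 0.70, and the smallest adjusted p among them was 0.230, of Cd38.

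The remaining comparison set Treg against Teff within each genotype, using the same libraries as above. In KO mice 7 of the 8 genes were higher in Treg and 0 lower, all but Ada, where 26.9% of tested genes were called, 15.7% higher and 11.2% lower. In WT mice 5 were higher in Treg and 1 lower, where 25.1% of tested genes were called, 13.5% higher and 11.6% lower. The median log2 fold change of the set was 1.41 in KO and 0.82 in WT, against 0 in KO and -0.0016 in WT over all tested genes.

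The adenosine-producing enzymes and CD38 were higher in Treg of both genotypes, with no overlap between any Treg and any Teff library. Entpd1 had log2 fold changes of Treg over Teff of 2.51 in KO and 1.86 in WT (SE 0.28 each, limma adjusted p = 0.000564 and 0.00269). Cd38 had 2.29 in KO and 1.59 in WT (SE 0.12 each, adjusted p = 2.48e-05 and 0.000138). Nt5e had 1.45 and 1.21, and Adora2a 1.38 and 1.15, in KO and WT mice (adjusted p of 0.000507 or less). P2rx7 was higher in Treg by 0.96 in KO and by 0.29 in WT (SE 0.059 each, adjusted p = 4.14e-05 and 0.0107). Its WT call was lost without WT Treg replicate 2, without WT Teff replicate 1 and without trend and robust shrinkage (adjusted p of 0.00412 to 0.0737 over 19 alternatives). The ratio of Nt5e to Entpd1 was 8.14 and 6.69 in KO Treg, 6.95 and 6.29 in WT Treg, 13.2 and 18.2 in KO Teff, and 11.7 and 9.21 in WT Teff, higher in every Teff library than in any Treg library.

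Both ART2 genes stood in a different order between the cell types in KO and in WT mice, and for Art2a both orders passed the test. In KO mice it was higher in Treg (290.2 and 267) than in Teff (87.7 and 94.7), with a log2 fold change of 1.60 (SE 0.11, limma adjusted p = 7.59e-05). In WT mice it was lower in Treg (386 and 400.2) than in Teff (648 and 671), with a log2 fold change of -0.74 (SE 0.11, adjusted p = 0.00306). The interaction given above is the test of this difference. Art2b was higher in Treg of KO mice (0.72, SE 0.094, adjusted p = 0.00128). In WT mice both Treg libraries (896 and 888) lay below both Teff libraries (989.6 and 1048), and the log2 fold change of -0.19 did not pass (SE 0.094, adjusted p = 0.191). Ada passed in neither genotype (0.13 in KO and 0.50 in WT, SE 0.22 each, adjusted p = 0.701 and 0.150).

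Macrophage and monocyte markers followed the same contrast, with 7 of 9 higher in Treg of KO mice and 8 of 9 higher and 1 lower in Treg of WT mice, at the summed levels given above. Other marker lists differed too. Activated T cell markers were higher in Treg for 5 of 6 in KO mice and 3 of 6 in WT mice, and resting T cell markers were lower for 5 of 6 in each. Of 5 dendritic cell markers 4 were lower and 1 higher in Treg of each genotype, both tested NK and gamma delta T cell markers were lower, and 2 of 3 erythroid and platelet markers and 1 of 6 B cell markers were higher. Macrophages are known to express several of these genes, and the part of such cells, or of activation, in the Treg values was not tested.

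**Figure D4:**
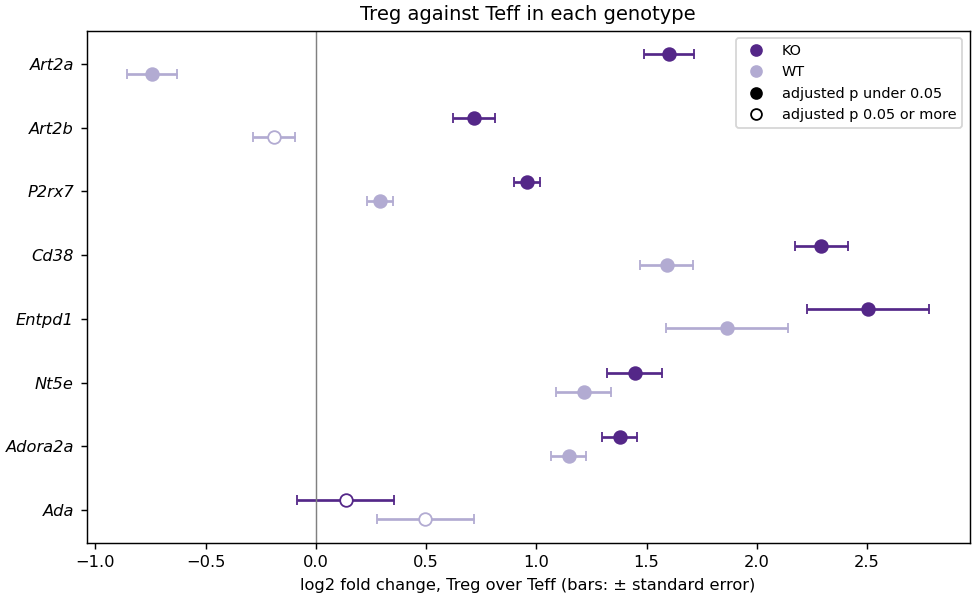
Log2 fold change of Treg over Teff (log2(value + 1) scale, bars are ± standard error from limma) for the 8 genes in KO and in WT mice, with filled points for an adjusted p under 0.05. Art2a lies at 1.60 in KO and -0.74 in WT, and Entpd1 and Cd38 have the largest values of the set in both genotypes, 2.51 and 2.29 in KO and 1.86 and 1.59 in WT.

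Levels of different genes were compared per kilobase of the longest transcript annotated as coding, or for Art2a as polymorphic pseudogene. On this scale Nt5e was highest in KO Treg (mean normalized read number per kb 1441), WT Treg (1317) and KO Teff (532), while in WT Teff P2rx7 (618) stood above Nt5e (564) with no overlap. Art2b per kb came after Nt5e and P2rx7 (771) in KO Treg (674), and in WT Treg (316) it overlapped with Art2a (313). In KO Teff Art2b (411) overlapped with P2rx7 (397) behind Nt5e. Art2a per kb stood above Art2b in WT Teff (524 against 361) and far below it in KO Teff (72.6 against 411). The WT Teff order rests on the transcript lengths used, 1.257 kb for Art2a and 2.819 kb for Art2b. Before division by length, the WT Teff mean of Art2a (659) was below that of Art2b (1019). Which transcripts were expressed was not tested. The lowest gene per kb was Ada in both Treg groups (68.0 in KO and 72.4 in WT), Cd38 in KO Teff (27.6, overlapping with Entpd1 at 33.5), and in WT Teff Entpd1, Ada and Cd38 overlapped at 51.8, 51.9 and 56.5.

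Genes whose profile was most like each of the 8 were found by Pearson's r of log2 values over the 8 libraries. These fall into 4 groups of 2, so the values only describe. Predicted genes, pseudogenes and antigen receptor genes were passed over as closest genes but kept in the counts of genes with r over 0.95. Art2a was most like F2r, which encodes a thrombin receptor (r = 0.993), and Cd24a (0.979), and 8 of 10393 genes had r over 0.95. Art2b was most like Zbtb39 (0.970) and Lpcat4 (0.961), with 4 such genes, and P2rx7 most like Gzmb, which encodes granzyme B (0.997), and Endod1 (0.993), with 156. Many more genes followed those that separate Treg from Teff: 646 for Cd38 (closest Nrn1 at 0.999 and Clec4a3, a myeloid lectin gene, at 0.998), 502 for Entpd1 (Utf1 and Yif1b, both 0.996), 440 for Nt5e (Nid2 at 0.999 and Rab11fip2 at 0.994) and 680 for Adora2a (Tnfrsf1b and Dusp4, both 0.999). Ada had none over 0.95, with Fuz (0.945) and Spg20 (0.937) closest.

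Of 70 tested other genes of the pathway, 1 was called between genotypes in Treg (1.43%, against 1.45% of all tested genes) and 5 in Teff (7.14%, against 6.92%), shares near those of the whole table. Each of those calls was lost under some alternative. In Treg 1 of 10 tested other ectonucleotidases fell in KO: Entpd4, which encodes an intracellular relative of CD39, had 731 and 736 in KO Treg, against 1110 and 1138 in WT Treg (log2 fold change -0.62, SE 0.071, limma adjusted p = 0.00864). It fell in Teff as well, with 867 and 823 in KO libraries, against 1148 and 1138 in WT libraries (-0.44, SE 0.071, adjusted p = 0.0151). These calls were lost in 4 alternatives each (adjusted p up to 0.0915 in Treg and 0.0780 in Teff, over 19 alternatives).

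In KO Teff 1 of 12 tested genes of other ADP-ribosyltransferases and NAD metabolism rose, Art4, a weakly expressed member of the ART family. It had 55.7 and 71.1 in KO Teff, against 20.1 and 22.2 in WT Teff (log2 fold change 1.53, SE 0.29, limma adjusted p = 0.0253). Of 11 tested other P2 receptors and ATP release genes 2 fell: P2ry13, which encodes an ADP receptor (-1.11, SE 0.26, adjusted p = 0.0474), and Panx1, which encodes a channel that releases ATP (-0.44, SE 0.10, adjusted p = 0.0496). P2ry13 stood near the bottom of the scale there, at 8.25 and 6.18 in KO Teff, against 17.1 and 16.1 in WT Teff. Of 10 tested genes of adenosine receptors, transport and disposal 1 fell, Slc29a3, which encodes a lysosomal nucleoside transporter (-0.36, SE 0.081, adjusted p = 0.0420). Art4 lost its call in 5 of 19 alternatives (adjusted p up to 0.129), Panx1 and Slc29a3 in 13 each (up to 0.179 and 0.182) and P2ry13 in 15 (up to 0.274).

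The remaining lists had 0 calls between genotypes by limma. In Treg these were NAD metabolism (1 higher and 1 lower of 12 at an unadjusted p under 0.05), P2 receptors and ATP release (1 higher and 1 lower of 11), genes downstream of P2X7 (0 higher and 1 lower of 10), adenosine handling (1 higher and 0 lower of 10) and cAMP signalling (1 higher and 1 lower of 17). The genes of smallest p there were Nampt, which encodes an enzyme of NAD salvage (log2 fold change -0.53, adjusted p = 0.129), P2ry13 (-1.11, 0.100), the inflammasome sensor gene Nlrp3 (-1.45, 0.152), the nucleoside transporter gene Slc28a2 (0.24, 0.177) and Prkar2a of protein kinase A (0.37, 0.114). In Teff no call was made among 10 genes downstream of P2X7 (0 higher and 4 lower at an unadjusted p under 0.05, smallest p Nlrp3 at -1.32, adjusted p = 0.107) or among 17 cAMP genes (2 higher and 2 lower, smallest p the phosphodiesterase gene Pde4a at -0.78, adjusted p = 0.0751). Nlrp3 stood near the bottom of the scale in Treg, at 7.90 and 3.95 in KO libraries and 18.7 and 15.8 in WT libraries. The list medians lay between -0.16 and 0.00084 in Treg and between -0.29 and 0.10 in Teff. At an unadjusted p under 0.05 there were 871 higher and 1093 lower of all 13358 tested genes in Treg. In Teff there were 1049 higher and 1832 lower.

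**Figure D5:**
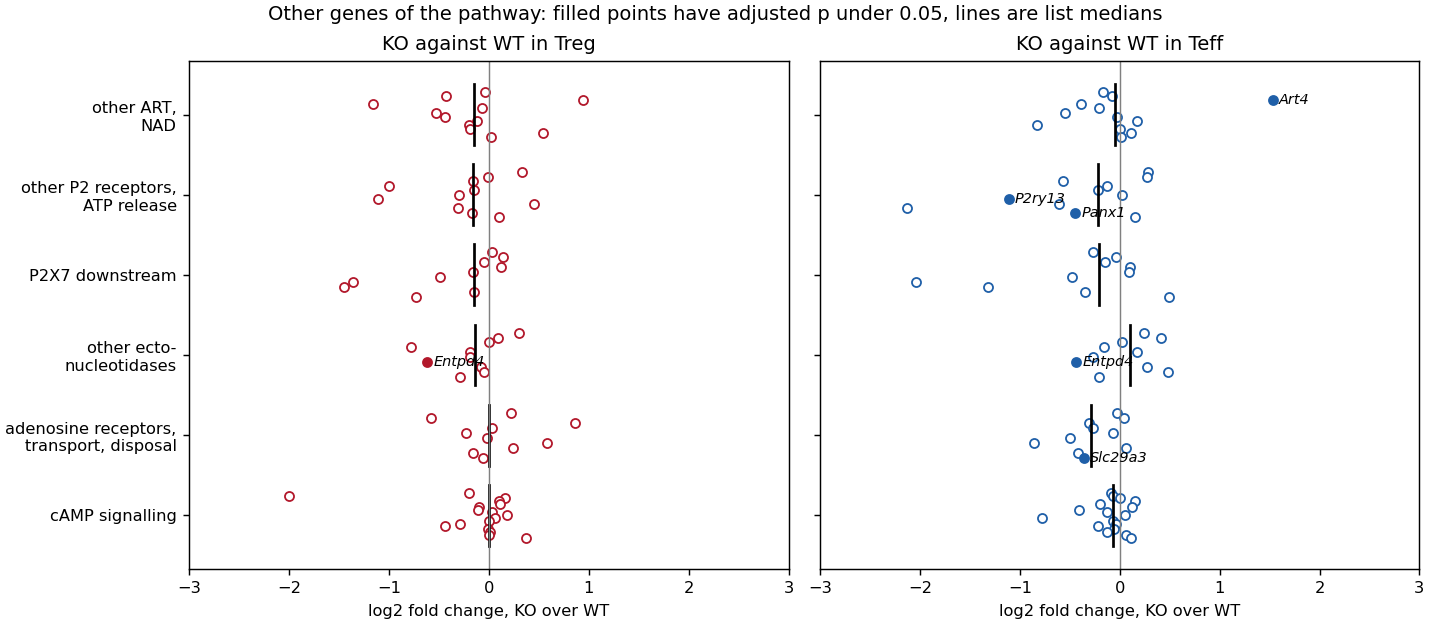
Log2 fold change of KO over WT (log2(value + 1) scale) for the tested genes of 6 related lists, in Treg on the left and in Teff on the right, 1 point per gene, filled and named where limma's adjusted p was under 0.05, with a line at each list's median. The filled points are Entpd4 in Treg, and Art4, P2ry13, Panx1, Entpd4 and Slc29a3 in Teff.

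Between the cell types 38 of the 70 genes were called in KO mice (54.3%, against 26.9% of all tested genes) and 31 in WT mice (44.3%, against 25.1%). These lists were chosen with results of these data known, so the shares describe them only. Some called genes, such as P2ry12 below, passed the filter only through the cell type where they were higher. The shares of all tested genes hold such genes too. Of 17 cAMP genes 3 were higher and 7 lower in Treg of KO mice, and 3 higher and 6 lower in WT mice. Pde3b, which encodes a phosphodiesterase that degrades cAMP, had 126 and 126 in KO Treg, against 2983 and 3084 in KO Teff, and 87.0 and 141 in WT Treg, against 2794 and 3073 in WT Teff (log2 fold change -4.58 in KO and -4.71 in WT, limma adjusted p = 1.22e-05 and 1.61e-05). The adenylyl cyclase genes Adcy7 and Adcy6 were lower in Treg too (-0.77 and -2.25 in KO, -0.71 and -2.41 in WT), and the cAMP-responsive factor gene Crem was higher (1.24 in KO and 0.95 in WT). The adjusted p of each was 0.00145 or less.

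Of 11 P2 receptor and ATP release genes 4 were higher and 2 lower in Treg of KO mice, and 4 higher and 3 lower in WT mice. P2ry13 was higher by 3.85 in each genotype and P2ry12, another ADP receptor gene, by 3.45 in KO and 3.76 in WT. Lrrc8a, which encodes a subunit of volume-regulated anion channels, was lower (-0.89 in KO and -0.94 in WT). P2ry12 had only 1.41 and 3.53 in KO Teff and 2.75 and 1.83 in WT Teff. It passed the filter through the Treg libraries alone. The size of its change is thus uncertain, at 2.44 to 3.90 in KO and 2.73 to 4.08 in WT over 18 alternatives. P2ry13 and P2ry12 are also known from myeloid cells, whose markers were higher in Treg as given above; their part was not tested. Among 10 genes downstream of P2X7, 4 were higher and 1 lower in KO and 2 higher and 2 lower in WT. Il18, a cytokine gene, was higher in Treg (2.82 in KO and 2.83 in WT), as was the costimulatory receptor gene Cd27 (0.66 and 0.65). Most macrophage and monocyte markers were higher in Treg too, as given above, and their part in the Il18 values was not tested. Nlrp3 was lower in Treg (-2.13 in KO and -2.00 in WT), with only 7.90 and 3.95 in KO Treg and 18.7 and 15.8 in WT Treg. Its WT value was -2.31 to -1.69 over 19 alternatives, and the call was lost in 2 of these.

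Among the other ectonucleotidases and phosphatases 2 of 10 were higher and 4 lower in Treg of KO mice, and 2 higher and 2 lower in WT mice. Acpp, which encodes a phosphatase that can also make adenosine from AMP, was lower in Treg (-1.26 in KO and -1.32 in WT), as was Entpd5 (-1.32 and -0.96). For adenosine handling 2 of 10 were higher and 2 lower in KO, and 1 was higher and 0 lower in WT. At an unadjusted p under 0.05 there were 1 higher and 3 lower in WT, beside 2552 and 2343 of 13358 tested genes. Slc29a1, which encodes an equilibrative nucleoside transporter, was higher in both genotypes (0.81 in KO and 0.55 in WT). Of 12 genes of NAD metabolism 5 were higher and 2 lower in KO and 5 higher and 1 lower in WT, among them Naprt, which encodes an enzyme that makes NAD from nicotinic acid (1.17 in KO and 1.58 in WT). Some of these calls, such as those of Slc29a1 in WT and Naprt in KO, were lost when 1 library was left out (adjusted p up to 0.0627 and 0.111 over 19 alternatives).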

How the data were processed

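Messenger RNA of 8 libraries, 2 for each of 4 groups, was read as 50-base single-end reads, per the labels' protocols, which name no strand marking and no molecular identifiers. The tools of the authors were DESeq2 1.28.1, R 4.0.3, Salmon 0.14.1 and Trim Galore 0.4.4, with build mm10, per the submitters' processing notes. The authors deposited 1 table with a normalized signal per library, and with their own log2 fold changes and adjusted p-values of KO over WT, which are quoted only as theirs. Signals are not whole: 56.7% to 59.6% of positive values under 20 were whole multiples of the commonest step (0.981 to 1.03, tolerance 0.02), so a count test was not possible. Precision rests on 2 libraries per group.

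The 13358 genes that reached 10 in 2 or more libraries were tested as log2(value + 1), which understates changes of weak genes, with limma 3.58.1 (trend, robust) in R 4.3.3, 1 coefficient per group over all 8 libraries and 4 residual degrees of freedom. Each of the 5 contrasts had its own Benjamini-Hochberg adjustment, and calls were made at 0.05. The fit was also run on simulated data with independent libraries and changes placed in KO Treg alone. That run does not bear on the other contrasts or on libraries that share a mouse. The alternatives, 20 in all, changed the pseudocount, filter, scaling (trimmed mean of M-values, or TMM, among them), shrinkage, libraries fitted, replicate term and the treatment of the ART2 pair. Transcripts, lengths and coordinates came from GENCODE M21 (GRCm38), with Python 3.11.15, Biopython 1.88, numpy 2.4.6, pandas 2.3.3 and matplotlib 3.10.9.

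The 8 genes and all lists were chosen with earlier results of these data known. Named are the 8 genes and the label checks Ern1, Foxp3 and Il2ra. Called members of each pathway list are named up to 4 by smallest p, or the 1 of smallest p where none was called. Markers needed beside a result are named too, as are the 2 genes most like each of the 8. These were taken among genes with a mean of at least 50, without predicted genes, pseudogenes and antigen receptor genes. Of the called members of a list between cell types, examples are given. The genes Casp1, Nt5c2, Slc29a2, Gnal, Cd5, Adgre1, Xcr1, Tcrg-C1, Trdc and Hbb-bs of these lists were not analysed here. A further listed gene is not reported here.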

Additional observations from a re-analysis of the deposited data

Results flagged for a closer look

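Art2a is the 1 gene of the set whose KO effect differed between the cell types by the interaction term, with a difference of Treg minus Teff of 2.34 on the log2 scale (SE 0.16, limma adjusted p = 0.00889). KO libraries lay below WT libraries in both cell types, 290.2 and 267 against 386 and 400.2 in Treg, and 87.7 and 94.7 against 648 and 671 in Teff. In the sum of both ART2 genes the difference was 1.19 (SE 0.12, adjusted p = 0.0610) and did not pass.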

How the results depend on the processing

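Of 18 calls over the 8 genes and 5 contrasts, 15 held under each alternative run, the exceptions being Art2a in the difference of effects, Cd38 in Teff and P2rx7 between cell types in WT. The 22 results without a call gained none. For the difference of effects, the number of the 8 genes called was 0 to 1 when single libraries were left out, and 0 with Art2a and Art2b summed. Directions turned in 4 results without a call: Ada between cell types in KO mice (-0.11 with quantile normalization, -0.022 to 0.29 without single libraries), Entpd1 in Treg (-0.24 to 0.20 without single libraries), Nt5e in Treg (-0.011 to 0.29) and Nt5e in Teff (-0.25 to 0.064). Of 51 pathway gene calls followed, 28 held under every alternative run. With a replicate block the counts of called genes in the set were the same as without it. They were 1 in Treg, 3 in Teff, 1 for the difference, 7 in KO and 6 in WT. Same-numbered libraries did not visibly deviate together (r of -0.039 to 0.078 over 10393 genes). With 1 replicate difference per group, this cannot tell whether same-numbered libraries share a mouse or a batch.

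Counts over all genes moved more. In Treg 194 became 114 with the replicate block and 44 to 72 without a single Treg library. In Teff 924 became 210 with only the groups compared, 571 without trend and robust shrinkage, and 347 to 642 without a single library. The difference of effects had 0 to 11 calls. Between cell types 3597 became 2351 to 3572 in KO without single libraries, and 3357 became 2086 to 3315 in WT. The causes were not tested. With 2 libraries per group, small differences of weak genes such as Ada and Art4 are poorly resolved.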
